A study of Mus musculus with 9 samples.

Results

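Ly6Clo monocytes of mice that lack the +37 element of Cebpa on both alleles were compared with Ly6Chi monocytes of wild-type mice. The members are 6 libraries of the 9 in the series, chosen by their titles: 3 of Ly6Clo monocytes from the deletion mice (genotype Cebpa +37-/-, here KO) and 3 of Ly6Chi monocytes from wild-type (WT) mice. All cells were sort-purified without treatment from the spleens of C57BL/6 mice, at 40000 to 50000 cells per sample. The remaining 3 libraries, Ly6Clo monocytes of WT mice, served to place the KO cells. The series holds no library of Ly6Chi cells from the deletion mice. Subset and genotype both differ between the KO Ly6Clo and WT Ly6Chi groups, so within this comparison their parts cannot be told apart. For that reason the difference between KO Ly6Clo and WT Ly6Clo, and that between WT Ly6Clo and WT Ly6Chi, are given beside the main results. The 3 comparisons share libraries, and no overlap or correlation between them is given. The labels give no age or sex of the mice and no surface markers of the sort beyond Ly6C, and no label ties a replicate to an animal of its own. The spread behind the p-values is thus that of these libraries, and how far it is technical is not known.

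Monocytes circulate as 2 main subsets in the mouse. Ly6Chi cells, the classical subset, leave the bone marrow with the help of the chemokine receptor Ccr2 and enter inflamed tissue, while Ly6Clo cells, the nonclassical subset, patrol the walls of blood vessels and need the nuclear receptor Nr4a1. Much of the Ly6Clo pool is held to descend from Ly6Chi cells, which switch off one gene programme and switch on the other. C/EBP-alpha, the product of Cebpa, is a transcription factor that granulocytes and monocytes need at the progenitor stage, and its +37 element is an enhancer downstream of the gene. The question was how far Ly6Clo cells formed without this enhancer differ from classical monocytes, and whether they stand where WT Ly6Clo cells stand.

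Levels are given in CPM, the depth-scaled count, on TMM-scaled library sizes, and a difference between groups as a log2 fold change with its standard error (SE). The gene totals ran from 48141590 to 60462708 counts in 7 libraries and were 173703361 in WT Ly6Clo replicate 2 and 149773219 in KO replicate 2, so that 3 counts correspond to 0.0173 to 0.0623 CPM. Several libraries stood apart. In WT Ly6Chi replicate 1 all 18 genes of a Ly6Clo monocyte list were lower than in the other 2 WT Ly6Chi libraries, with a summed level of 2062 CPM against 7488 and 8183 CPM. Immediate early and heat shock genes were low in replicate 1 of every group, at 2033, 3173 and 2319 CPM in WT Ly6Chi, WT Ly6Clo and KO against 12632 to 26135 CPM in the other 6 libraries. WT Ly6Chi replicate 3 had no count of the Y-linked genes Ddx3y and Eif2s3y, which all other libraries expressed. By these genes the WT Ly6Chi libraries were not all of the same sex, and no fit held a term for sex. Erythroid markers summed to 1.78 CPM in KO replicate 1 and to 7574 and 1481 CPM in KO replicates 2 and 3. Fits without each of these libraries, without all replicate 1 libraries together and with run or replicate terms are among the alternatives.

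Cebpa itself was lowest in the KO libraries. The gene lies on chromosome 7 (35119293 to 35121928, plus strand, GRCm38). Its levels were 31.5, 51.3 and 51.6 CPM in WT Ly6Chi, 18.2, 17.7 and 19.2 CPM in WT Ly6Clo against 4.04, 2.89 and 2.74 CPM in the KO cells. The 3 groups did not overlap. The level fell 13.9-fold from WT Ly6Chi to KO Ly6Clo (log2 -3.80 ± 0.29 SE, edgeR adjusted p = 0.00031), and the call was kept in 17 of 17 alternatives. Against WT Ly6Clo it was called too (log2 -2.51, edgeR adjusted p = 0.015), but not with the replicate number as a block (edgeR adjusted p = 0.056). Of the 7 members of the C/EBP family, 2 were lower, Cebpa and Cebpe, and 0 were higher, beside 2.46% lower and 2.06% higher of all genes tested. Cebpe, a factor of late granulocyte differentiation, had 5.44, 5.90 and 5.57 CPM in WT Ly6Chi and 0, 0.0771 and 0.0527 CPM in KO (log2 -6.90 ± 1.59 SE, edgeR adjusted p = 0.044). WT Ly6Clo libraries were low as well, at 0.385, 0.00663 and 0.0191 CPM. The Cebpe call held in 8 of 17 alternatives and was lost without any one of the 3 WT Ly6Chi libraries, the 3 KO libraries or WT Ly6Clo replicate 3, with adjusted p up to 0.16. Cebpb, a family member of mature monocytes and macrophages, had 768, 900 and 726 CPM in WT Ly6Chi and 1318, 1301 and 966 CPM in KO. Its groups did not overlap, but the difference did not pass (log2 0.58 ± 0.27 SE, edgeR adjusted p = 0.33).

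Between KO Ly6Clo and WT Ly6Chi monocytes, 829 of 18341 genes tested were called (edgeR quasi-likelihood test, Benjamini-Hochberg adjusted p under 0.05), 377 higher in KO Ly6Clo, which is 2.06% of the genes tested, and 452 lower, which is 2.46%. At least 4-fold changes made up 182 of the rises and 225 of the falls. In 828 of the 829 called genes no KO value fell within the WT Ly6Chi range. The calls rest on the same libraries, so this is no separate support for them. Of the called genes, 756 were protein-coding. The median log2 difference over all genes was 0.04. The WT subsets differed at 345 higher genes (1.88%) and 298 lower genes (1.62%), and KO and WT Ly6Clo at 13 genes (0.0709%), 2 higher and 11 lower. These numbers moved with single libraries. The rises numbered 230, 170 and 196 without WT Ly6Chi replicates 1, 2 and 3, 203 and 205 without KO replicates 2 and 3, and 242 and 238 on omission of WT Ly6Clo replicates 1 and 3. The falls numbered 280, 209 and 242 without the WT Ly6Chi replicates, and 300 and 236 without KO replicates 2 and 3. Between the WT subsets 643 genes were called in all and 239 to 342 without any one WT library. Between KO and WT Ly6Clo the number was 21 without KO replicate 1, 8 without WT Ly6Clo replicate 1, 5 without WT Ly6Clo replicate 2 or WT Ly6Chi replicate 3 and 2 without WT Ly6Clo replicate 3.

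Over all genes tested the KO libraries lay nearer to WT Ly6Clo than to WT Ly6Chi. The distance between 2 libraries was taken as the root mean square difference of log2(CPM + 1). It was 0.94 ± 0.08 (SD over 9 library pairs, range 0.85 to 1.08) between KO Ly6Clo and WT Ly6Chi and 0.72 ± 0.09 (range 0.61 to 0.89) between KO and WT Ly6Clo. Between the KO libraries themselves the distance was 0.76 ± 0.19 over 3 pairs. It was 0.88 and 0.86 for the pairs with KO replicate 1 and 0.55 between KO replicates 2 and 3. With KO replicate 1 left out, KO libraries lay 0.69 from WT Ly6Clo and 0.94 from WT Ly6Chi. WT Ly6Clo and WT Ly6Chi were 0.86 ± 0.10 apart (range 0.75 to 1.06), and pairs within those groups 0.61 and 0.62 on average. Library pairs share libraries, so no test was made of these distances. They fell to 0.66 and 0.46 with a pseudocount of 5 and to 0.65 and 0.50 without the filter on low counts, in the same order.

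Genes of the Ly6Chi programme were low in the KO cells. Of 16 listed Ly6Chi monocyte genes 11 fell and 0 rose, beside 2.46% and 2.06% of all genes, and the median log2 fold change was -5.17. The list was chosen with earlier results of these data known, so the count describes these genes and is no independent test. In all 16 genes the KO libraries lay below the WT Ly6Chi libraries. The share of all genes tested with such a separation is not given. Ly6c2, the gene of the antigen used in the sort, had 1063, 913 and 862 CPM in WT Ly6Chi and 2.14, 3.84 and 2.84 CPM in KO (log2 -8.32 ± 0.43 SE, edgeR adjusted p = 0.00021). WT Ly6Clo libraries had 2.22, 4.26 and 5.33 CPM, which the KO values overlapped. The cells were sorted on this antigen, so its difference is that of the gate and no finding. Without Ly6c2 and its near copy Ly6c1, 9 of 14 listed genes fell and 0 rose, with a median log2 fold change of -4.62. Ccr2, the receptor for marrow exit, had 1512, 990 and 992 CPM in WT Ly6Chi, 187, 136 and 97.9 CPM in KO and 100, 83.8 and 93.8 CPM in WT Ly6Clo (log2 -3.05 ± 0.28 SE against WT Ly6Chi, edgeR adjusted p = 0.00077).

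Against WT Ly6Clo the Ly6Chi genes went both ways: 9 of the 16 had a negative and 7 a positive log2 difference. Chil3, a chitinase-like secreted protein, had 2867, 1002 and 3189 CPM in WT Ly6Chi, 8.05, 14.5 and 5.71 CPM in WT Ly6Clo against 0, 0.281 and 0.369 CPM in KO. Its fall from WT Ly6Chi to KO was called (log2 -13.37 ± 1.13 SE, edgeR adjusted p = 0.00051). Against WT Ly6Clo the 95% interval of the log2 difference was -7.35 to -3.46, but that difference did not pass (edgeR adjusted p = 0.086). Fn1, fibronectin, had 1682, 2979 and 3213 CPM in WT Ly6Chi, 7.50, 17.1 and 5.54 CPM in WT Ly6Clo against 0.388, 2.12 and 0.386 CPM in KO (log2 -11.35 ± 1.01 SE against WT Ly6Chi, edgeR adjusted p = 0.00062). The interval against WT Ly6Clo was -4.96 to -1.69 (edgeR adjusted p = 0.25). Mgst1, a microsomal glutathione transferase, was the only listed gene of either subset that passed against WT Ly6Clo too. It had 470, 262 and 299 CPM in WT Ly6Chi, 83.8, 109 and 104 CPM in WT Ly6Clo against 18.0, 9.15 and 10.4 CPM in KO (log2 fold change -4.78 against WT Ly6Chi and -2.98 against WT Ly6Clo, edgeR adjusted p = 0.00031 and 0.015). Other called members were F13a1, the A chain of coagulation factor XIII, Cd177, a surface protein of neutrophils, Ly6c1, a near copy of Ly6c2, Hp, haptoglobin, and Ifitm3, an antiviral membrane protein. The 5 without a call were Vcan, Mmp8, S100a4, Plac8 and Ifitm6, with log2 differences from -6.66 (Vcan) to -0.65 (Ifitm6). Vcan, a proteoglycan, had 88.6, 13 and 31.0 CPM in WT Ly6Chi and 1.33, 0.00701 and 0 CPM in KO, and was called only where KO replicate 1 was left out among the single-library alternatives. KO replicate 1 held the highest KO value for 9 of the 16 genes. The number of called falls in the list was 8 without KO replicate 2, 9 to 13 without any other single library and 12 without the replicate 1 libraries. It was 14 by DESeq2 and 13 by limma-voom, which called 942 and 539 of all genes as lower. The Hp call held in 11 of 17 alternatives and was lost without each WT Ly6Chi replicate and without KO replicates 2 and 3. The Ifitm3 call held in 5 of 17 and was lost without every single library except WT Ly6Clo replicate 2. The Cd177 call was lost without KO replicate 2.

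**Figure D1:**
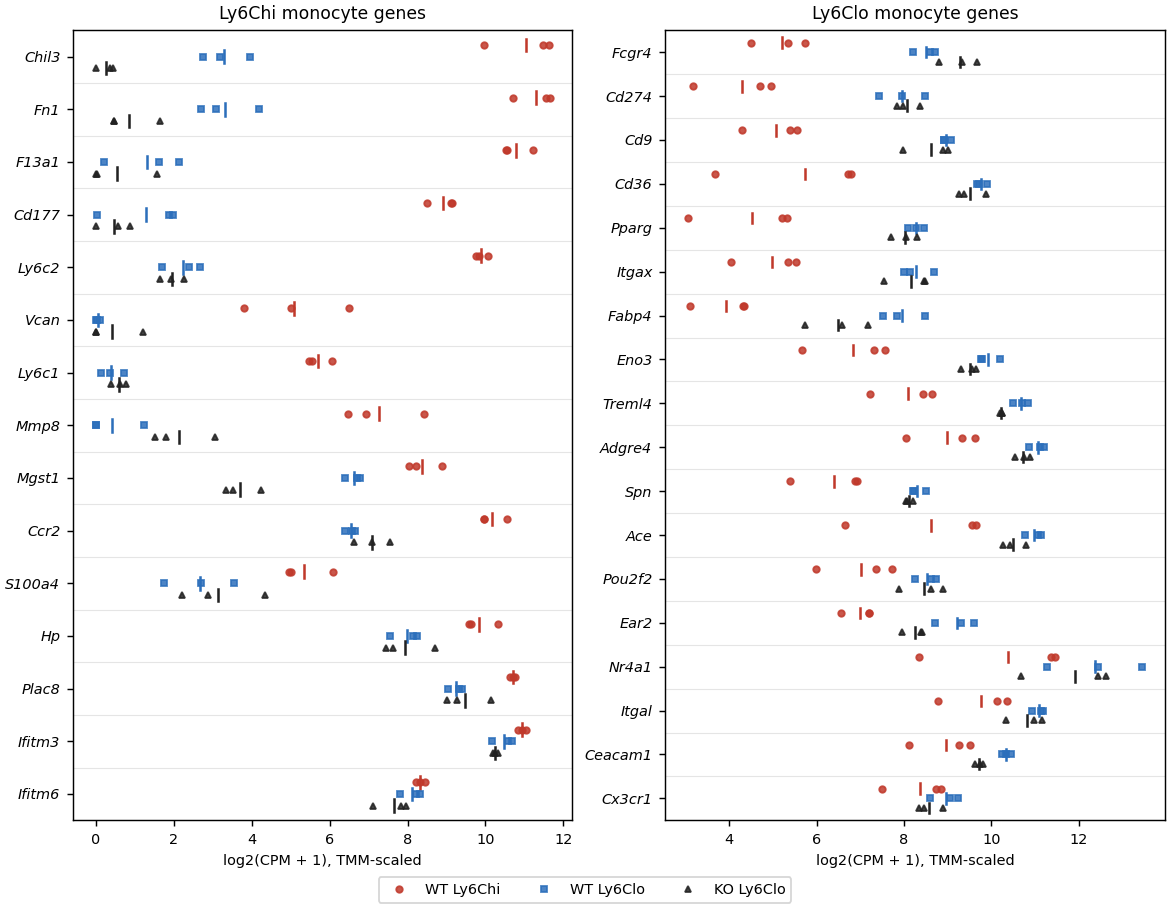
Levels of 15 of the 16 Ly6Chi and all 18 Ly6Clo monocyte genes as log2(CPM + 1) on the x axis, 1 row per gene, with a point per library, a vertical line at the group mean and colours for the 3 groups. The KO libraries lie left of all WT Ly6Chi libraries for all 15 genes on the left, and right of them for 15 of 18 genes on the right, where 1 WT Ly6Chi library, replicate 1, is the lowest for all 18.

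Genes of the Ly6Clo programme were high in the KO cells. Of 18 listed Ly6Clo monocyte genes 12 rose and 0 fell, beside 2.06% and 2.46% of all genes, with a median log2 fold change of 1.80. This list too was chosen with earlier results of these data known, so its count is no independent test. In 15 of them the KO libraries lay above the WT Ly6Chi libraries. The share of all genes tested that separate in this way is not given here either. Treml4, a receptor of the TREM family on nonclassical monocytes, had 148, 347 and 398 CPM in WT Ly6Chi, 1211, 1205 and 1170 CPM in KO and 1655, 1841 and 1439 CPM in WT Ly6Clo (log2 2.01 ± 0.32 SE against WT Ly6Chi, edgeR adjusted p = 0.010). All KO values lay below all WT Ly6Clo values, and the difference between those groups did not pass (95% interval -1.16 to 0.24). Fcgr4, an activating Fc receptor for IgG, had 21.8, 40.0 and 52.5 CPM in WT Ly6Chi, 816, 642 and 448 CPM in KO and 418, 295 and 384 CPM in WT Ly6Clo (log2 4.06 ± 0.37 SE, edgeR adjusted p = 0.00077). It was the only listed Ly6Clo gene whose interval against WT Ly6Clo lay above 0 (0.05 to 1.55, edgeR adjusted p = 0.77).

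The tetraspanin Cd9 had 18.6, 45.7 and 40.9 CPM in WT Ly6Chi and 253, 516 and 471 CPM in KO (log2 3.56 ± 0.39 SE, edgeR adjusted p = 0.0015). Cd274, the checkpoint ligand PD-L1, had 8.01, 30.3 and 25.2 CPM in WT Ly6Chi and 227, 327 and 253 CPM in KO (log2 3.67 ± 0.50 SE, edgeR adjusted p = 0.0049). Itgax, the integrin chain CD11c, had 15.4, 40.0 and 45.5 CPM and 352, 356 and 186 CPM (log2 3.15 ± 0.44 SE, edgeR adjusted p = 0.0058). In these 3 genes the KO values overlapped those of WT Ly6Clo. Spn, the sialomucin CD43, which is higher on nonclassical monocytes, had 41.3, 121 and 117 CPM in WT Ly6Chi and 269, 294 and 264 CPM in KO (log2 1.57 ± 0.35 SE, edgeR adjusted p = 0.040). Cd36, a scavenger receptor for fatty acids and oxidised lipoprotein, had 11.8, 109 and 105 CPM and 613, 943 and 657 CPM (log2 3.29 ± 0.68 SE, edgeR adjusted p = 0.029). The calls of both genes depended on single libraries. That of Spn was lost without any library except WT Ly6Chi replicate 1 (held in 8 of 17 alternatives, adjusted p up to 0.11), and that of Cd36 without WT Ly6Chi replicate 2 or 3, KO replicate 2 or 3 or WT Ly6Clo replicate 1 or 3 (10 of 17, up to 0.078). Pparg, a nuclear receptor of lipid metabolism, Eno3, an enolase, Fabp4, a fatty acid binding protein, Adgre4, an adhesion receptor of the EGF-TM7 family, and Ear2, an eosinophil-associated ribonuclease, completed the called members, with log2 fold changes of 3.26, 2.47, 2.67, 1.59 and 1.26. The Fabp4 call was lost without WT Ly6Chi replicate 2, that of Ear2 without each WT Ly6Chi replicate, KO replicate 1 or 3 or WT Ly6Clo replicate 3, and that of Adgre4 without WT Ly6Chi replicate 2, each WT Ly6Clo replicate or each KO replicate.

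Of the 6 listed Ly6Clo genes that did not pass, Nr4a1, Cx3cr1 and Itgal overlapped between the groups. Nr4a1 had 322, 2627 and 2785 CPM in WT Ly6Chi, 1638, 6262 and 5592 CPM in KO and 2458, 11134 and 5537 CPM in WT Ly6Clo (log2 1.23 ± 0.82 SE against WT Ly6Chi, edgeR adjusted p = 0.53). The lowest value of each group was replicate 1, the library in which immediate early genes were also low in that group. The fractalkine receptor Cx3cr1 had 180, 459 and 425 CPM in WT Ly6Chi and 349, 324 and 474 CPM in KO (log2 0.11 ± 0.34 SE, edgeR adjusted p = 0.93), and the sign turned to -0.21 without WT Ly6Chi replicate 1. Itgal, the alpha chain of the integrin LFA-1, had 437, 1122 and 1311 CPM and 1287, 2275 and 2013 CPM (log2 0.96 ± 0.37 SE, edgeR adjusted p = 0.23), where KO replicate 1 lay within the WT Ly6Chi range. The other 3, Ace, Pou2f2 and Ceacam1, did not overlap between the groups and had log2 differences of 1.4, 1.33 and 0.66. The number of called rises in the list was 7 without WT Ly6Chi replicate 2, 8 without KO replicate 3 or WT Ly6Clo replicate 3, 9 to 11 without any other single library and 14 without the replicate 1 libraries. It was 13 by DESeq2 and 12 by limma-voom, which called 1009 and 369 of all genes as higher.

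Against WT Ly6Clo, 1 of the 16 Ly6Chi genes was called, Mgst1, and the median log2 difference of that list was -0.24, beside -5.17 against WT Ly6Chi. The 95% interval of that difference held 0 for 11 genes, lay below 0 for Chil3, Fn1 and Mgst1 and above 0 for Ccr2 (0.01 to 1.19) and Mmp8, a neutrophil collagenase (0.07 to 5.67), neither of which passed (edgeR adjusted p = 0.80 for both). Log2 differences in the list ran from -5.41 to 3.85. Of the 18 Ly6Clo genes, 0 were called by edgeR and 16 had a negative log2 difference (median -0.31, over all genes 0.03). An unadjusted p under 0.05 was found for 3 of the 18, beside 1130 of all 18341 genes tested. In the WT comparison the median log2 fold change of the list was 2.35, with 12 called as higher. The 95% interval of the KO minus WT Ly6Clo difference held 0 for 15 genes, lay below 0 for Fabp4 (-2.43 to -0.36) and Ear2 (-1.59 to -0.37) and above 0 for Fcgr4. Fabp4 had 144, 52.0 and 94.9 CPM in KO and 356, 183 and 228 CPM in WT Ly6Clo, and Ear2 341, 246 and 336 CPM and 773, 418 and 630 CPM. Both genes lay between the WT subsets in all KO libraries, and neither passed against WT Ly6Clo (edgeR adjusted p = 0.62 and 0.49). The intervals were wide: they stayed within 2-fold in both directions for 2 of the 18 Ly6Clo genes (Spn and Pou2f2) and for 4 of the 16 Ly6Chi genes (Hp, Plac8, Ifitm3 and Ifitm6), so for the others a difference of 2-fold or more between KO and WT Ly6Clo lay within the interval.

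**Figure D2:**
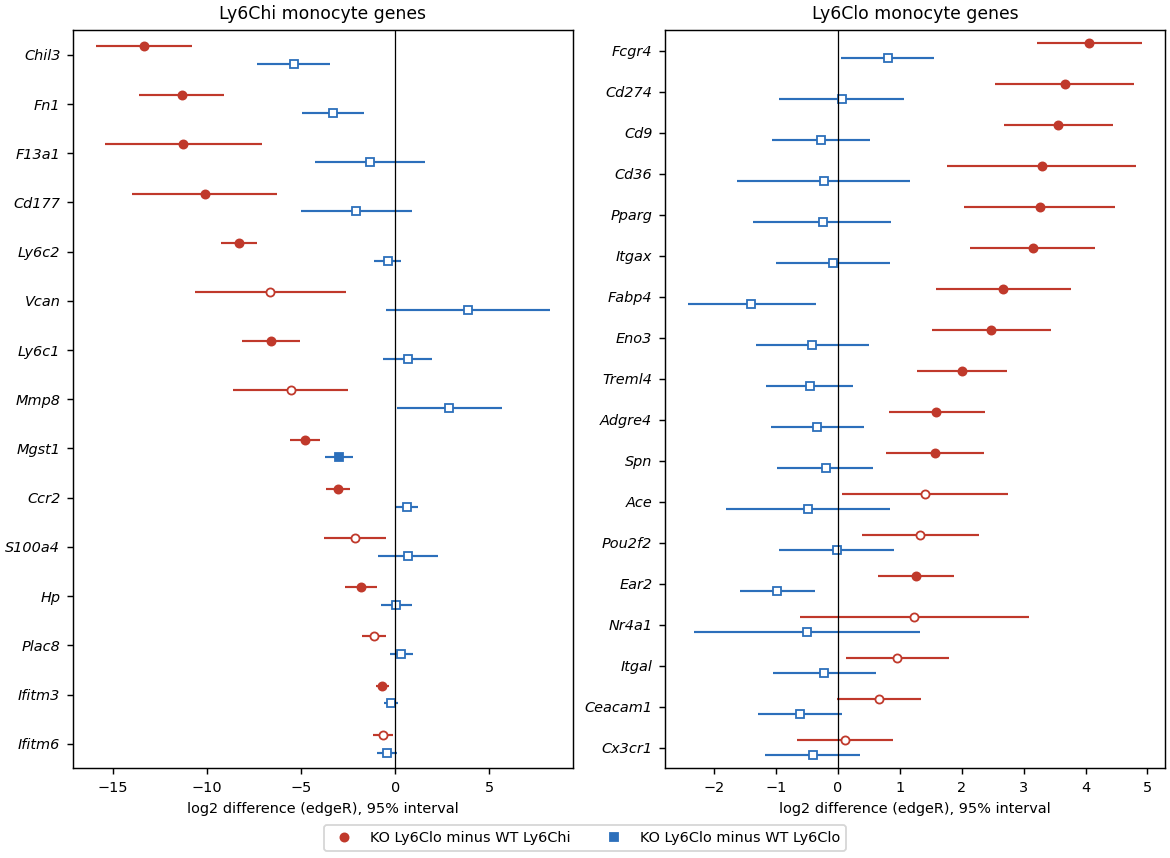
Log2 differences (x axis) with 95% intervals for the same genes, circles for KO Ly6Clo minus WT Ly6Chi and squares for KO Ly6Clo minus WT Ly6Clo, filled where edgeR's adjusted p was under 0.05. Filled circles mark 10 of the 15 Ly6Chi genes shown and 12 of 18 Ly6Clo genes, and Mgst1 has the only filled square.

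Among the 12 largest rises by fitted log2 fold change, most genes were near 0 in classical monocytes. Cd300e, an activating receptor of the CD300 family, had the smallest adjusted p of the 12: 13.5, 29.6 and 31.5 CPM in WT Ly6Chi and 1255, 1116 and 1032 CPM in KO (log2 5.51 ± 0.35 SE, edgeR adjusted p = 0.00026), beside 1405, 1211 and 1024 CPM in WT Ly6Clo. Ccdc192, a coiled-coil gene, had 0.0179, 0.209 and 0.123 CPM, then 5.29, 4.59 and 7.35 CPM in KO and 7.33, 8.72 and 6.68 CPM in WT Ly6Clo. In both genes KO and WT Ly6Clo libraries overlapped. Nes, the intermediate filament nestin, had 0.143, 0.0626 and 0.0204 CPM in WT Ly6Chi, 2.34, 19.3 and 16.2 CPM in KO and 6.01, 7.64 and 14.1 CPM in WT Ly6Clo. Htra3, a secreted serine protease, was far higher in KO than in either WT group: 0.232, 0 and 0 CPM in WT Ly6Chi, 2.42, 3.34 and 1.70 CPM in WT Ly6Clo against 242, 266 and 83.3 CPM in KO. Its rise was called against WT Ly6Chi (log2 11.18 ± 1.04 SE, edgeR adjusted p = 0.00080) and against WT Ly6Clo (log2 6.30, interval 4.49 to 8.10, edgeR adjusted p = 0.039).

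Glis1, a Krüppel-like zinc finger factor, had 0.143, 0 and 0.0204 CPM in WT Ly6Chi, 1.67, 5.76 and 5.25 CPM in WT Ly6Clo against 14.7, 17.0 and 46.5 CPM in KO, and Rhoc, a small GTPase, 0.179, 0.0417 and 0.204 CPM, 0.568, 2.29 and 1.83 CPM and 4.59, 5.03 and 9.53 CPM in the same order. For both, the lowest KO library lay above the highest WT Ly6Clo library, and the intervals against WT Ly6Clo lay above 0 (0.77 to 4.47 and 0.45 to 3.59) without passing (edgeR adjusted p = 0.58 and 0.64). Fndc1, Xirp1 and Fcrl5 had 1, 2 and 3 counts in all WT Ly6Chi libraries together and 2043, 1461 and 1855 counts in KO. The count ratios were 1183 for Fndc1 (95% counting interval 212 to 46738), 423 for Xirp1 (117 to 3495) and 358 for Fcrl5 (122 to 1737). Xirp1, an actin-binding repeat protein, had 0.0621, 5.39 and 12.1 CPM in KO, so that replicate 1 was near the WT Ly6Chi libraries. Gata2, a factor of progenitors and mast cells, was uneven too, at 2.51, 19.3 and 28.1 CPM in KO against 0.0179, 0 and 0.0613 CPM in WT Ly6Chi and 0.055, 5.51 and 14.4 CPM in WT Ly6Clo. The remaining rises were Gdnf, a neurotrophic factor, and Spag11b, a defensin-like gene with a near copy. All 12 were called at the full set of libraries, but the calls of Fndc1, Gata2, Xirp1, Fcrl5 and Gdnf were lost without WT Ly6Chi replicate 2 or 3, those of Fndc1, Gata2 and Xirp1 also without replicate 1, and those of Gata2 and Xirp1 also without KO replicate 2 or 3 or WT Ly6Clo replicate 2 or 3. By limma-voom the calls of Htra3, Glis1, Nes and these 5 genes were missed (adjusted p from 0.075 to 0.56).

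The 12 largest falls held the abundant classical genes Chil3, Fn1, F13a1, Cd177 and Ly6c2. F13a1 had 2401, 1507 and 1487 CPM in WT Ly6Chi and 0.031, 1.98 and 0 CPM in KO (log2 -11.26 ± 1.85 SE, edgeR adjusted p = 0.011). Chil4, a near copy of Chil3 with which it can share reads, had 88.3, 25.4 and 74.1 CPM and 0.14, 0.014 and 0.0176 CPM. Clec5a, an activating C-type lectin, had 61.0, 25 and 29.3 CPM in WT Ly6Chi, 2.09, 0.822 and 1.47 CPM in WT Ly6Clo against 0.0155, 0.379 and 0.211 CPM in KO. In Chil4 and Clec5a every KO library lay below every WT Ly6Clo library, and the intervals against WT Ly6Clo lay below 0 (-4.47 to -0.69 and -4.56 to -0.99) without passing. Fcnb, a ficolin of myeloid cells, and Camp, the cathelicidin of neutrophil granules, were low in both Ly6Clo groups. Fcnb had 24.8, 15.7 and 14.6 CPM in WT Ly6Chi and at most 0.0621 CPM in KO, and Camp 9.28, 88.2 and 28.4 CPM and 0, 0 and 0.421 CPM. Amotl2, an angiomotin family scaffold, had 1106 counts in WT Ly6Chi and 2 in KO, a ratio of 955 (95% counting interval 264 to 7898). The Fcnb call was lost without WT Ly6Chi replicate 1 or KO replicate 2 or 3, and that of Camp without WT Ly6Chi replicate 2 or 3, KO replicate 1 or 2 or WT Ly6Clo replicate 1 or 3.

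**Figure D3:**
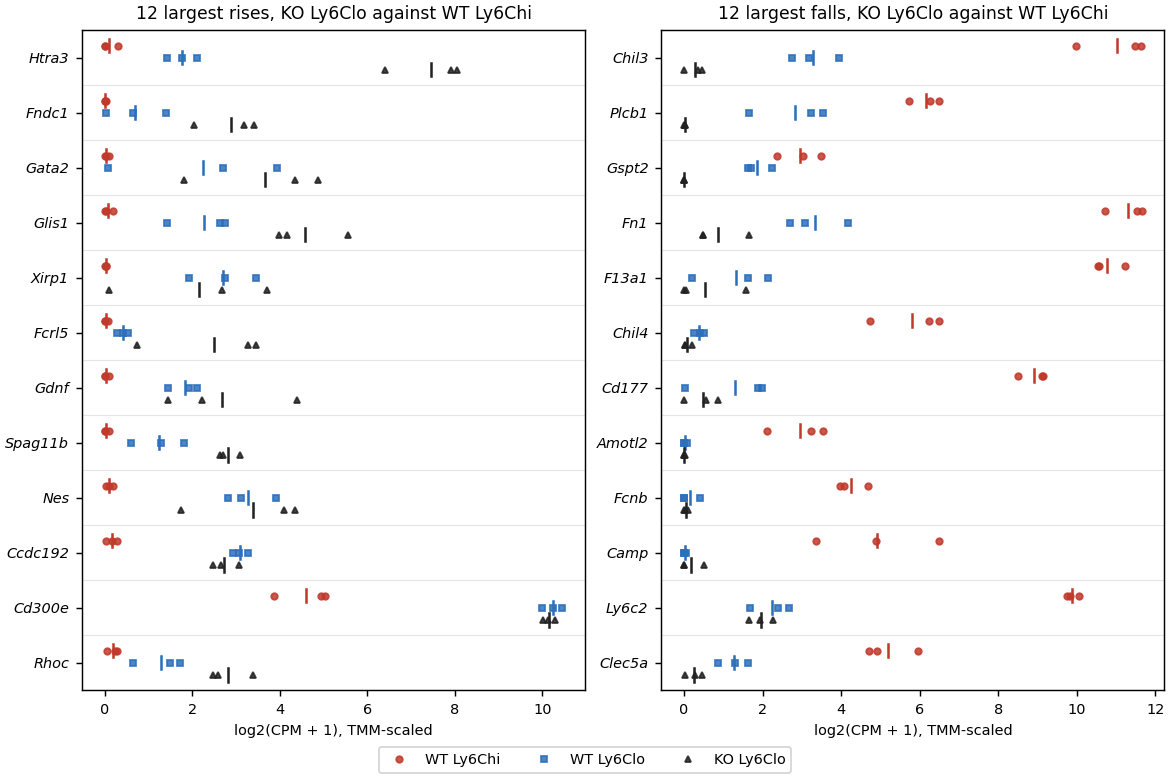
The 12 largest rises (left) and 12 largest falls (right) between KO Ly6Clo and WT Ly6Chi monocytes, as log2(CPM + 1) per library on the x axis, with a vertical line at each group mean. Cd300e lies above 1000 CPM in all KO libraries and below 32 CPM in all WT Ly6Chi libraries, while Htra3 reaches 266 CPM in KO only.

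Promoters are shown for 2 genes of the falls and 2 genes that rose, to place the changes in sequence. Each run gives the 250 bases before the start site in RefSeq, GRCm38.p6, read 5′ to 3′ on the gene's strand in lower case. Capitals mark matches to TTNNGNAA on either strand, a loose form of the site that C/EBP factors bind.
Ly6c2, chr15:75111972-75112221, minus strand: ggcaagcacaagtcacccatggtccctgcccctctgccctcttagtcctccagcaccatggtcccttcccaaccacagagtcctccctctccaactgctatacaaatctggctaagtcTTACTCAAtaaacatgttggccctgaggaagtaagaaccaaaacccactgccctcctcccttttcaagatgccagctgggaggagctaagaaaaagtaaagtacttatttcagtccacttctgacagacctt
Chil3, chr3:106167565-106167814, minus strand: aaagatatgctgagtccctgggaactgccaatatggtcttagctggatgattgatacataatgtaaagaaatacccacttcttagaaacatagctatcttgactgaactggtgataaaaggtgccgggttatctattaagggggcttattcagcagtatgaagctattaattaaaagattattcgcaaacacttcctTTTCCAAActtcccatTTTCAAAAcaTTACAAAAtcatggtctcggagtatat
Cd300e, chr11:115062040-115062289, minus strand: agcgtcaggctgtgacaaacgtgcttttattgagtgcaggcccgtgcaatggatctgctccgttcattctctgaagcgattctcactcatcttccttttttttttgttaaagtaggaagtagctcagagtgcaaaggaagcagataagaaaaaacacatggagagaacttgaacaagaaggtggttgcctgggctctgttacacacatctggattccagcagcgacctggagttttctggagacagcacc
Treml4, chr17:48264045-48264294, plus strand: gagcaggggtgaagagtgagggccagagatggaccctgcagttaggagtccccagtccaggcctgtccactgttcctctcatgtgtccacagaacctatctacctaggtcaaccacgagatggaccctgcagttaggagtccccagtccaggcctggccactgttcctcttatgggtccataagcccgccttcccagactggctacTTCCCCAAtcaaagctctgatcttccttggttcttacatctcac
Chil3 held 3 matches, Ly6c2 and Treml4 held 1 each and Cd300e held 0. Of the 34 genes that are always named or among the largest changes, 27 had a promoter in the table. TTNNGNAA was present in 7 of 10 of the largest falls with a promoter and 2 of 9 of the largest rises, beside 37.1% of all 27025 promoters of this length. The stricter palindrome TTGCGCAA was in 0 of the 27 and in 0.167% of all promoters, and CCACACCC, a form of the site of Krüppel-like factors, was in 1, Camp, beside 3.22% of all promoters. A match is only a string of letters, and binding was not measured.

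Of the 13 genes that differed between KO and WT Ly6Clo, 12 are described here, all of which also differed from WT Ly6Chi. The other one, Stxbp6, lies outside the rule for named genes and is named after its values were seen. With the replicate number as a block, 13 genes were called as well, of which 7 were the same: Wls, Hnmt, Gm19951, Plcb1, Vill, Mgst1 and Htra3. The calls of Ly6a, Cd40, Abca9, Gspt2, Cebpa and Stxbp6 against WT Ly6Clo were lost in that fit, with edgeR adjusted p of 0.056, 0.084, 0.055, 0.056 and 0.056 for the first 5. Wls, a transport protein that Wnt ligands need for their secretion, had 85.4, 86.5 and 97.6 CPM in WT Ly6Chi, 74.0, 66.2 and 84.6 CPM in WT Ly6Clo against 17.7, 16.2 and 18.5 CPM in KO (log2 -2.36 ± 0.16 SE against WT Ly6Chi, edgeR adjusted p = 0.00026). The WT subsets lay close together, and their difference did not pass (edgeR adjusted p = 0.43). Hnmt, which methylates histamine, had 7.78, 6.97 and 5.86 CPM in WT Ly6Chi, 11.1, 5.86 and 8.69 CPM in WT Ly6Clo against 0.466, 0.400 and 0.421 CPM in KO (log2 -4.00 ± 0.39 SE, edgeR adjusted p = 0.00099). Ly6a, the surface antigen Sca-1, had 9.96, 12.3 and 11.6 CPM in WT Ly6Chi, 21.5, 11.9 and 18.3 CPM in WT Ly6Clo against 244, 262 and 95.8 CPM in KO (log2 4.15 ± 0.41 SE, edgeR adjusted p = 0.0010). For these 3 genes, and for the noncoding RNA Gm19951 with 97.0, 107 and 124 CPM, 214, 130 and 138 CPM and 27.9, 16.4 and 24.4 CPM in the same order, the KO libraries lay outside the range of all 6 WT libraries while the WT subsets were within 2-fold of each other on average.

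In the other genes the KO cells lay beyond WT Ly6Clo on the side away from WT Ly6Chi. Plcb1, a phospholipase C, had 75.9, 51.9 and 88.2 CPM in WT Ly6Chi, 10.7, 8.42 and 2.16 CPM in WT Ly6Clo against 0, 0.021 and 0.0176 CPM in KO (log2 -12.10 ± 0.91 SE against WT Ly6Chi, edgeR adjusted p = 0.00031). Cd40, a receptor that T cells engage, had 47.6, 67.3 and 58.1 CPM, 27.4, 21.3 and 27.4 CPM and 7, 8.91 and 6.32 CPM in that order (log2 -2.96 ± 0.24 SE, edgeR adjusted p = 0.00041). Abca9, an ABC transporter, had 104, 179 and 189 CPM, 98.0, 59.2 and 64.6 CPM and 7.96, 9.80 and 5.58 CPM (log2 -4.33 ± 0.35 SE, edgeR adjusted p = 0.00041). Vill, a villin-like protein, had 155, 121 and 113 CPM, 90.6, 73.9 and 77.0 CPM and 22.9, 28.3 and 21.8 CPM. In each of these genes the 3 groups did not overlap. For Gspt2, whose product helps to end translation, there were 1120 counts in WT Ly6Chi and 0 in the 3 KO libraries, which is at least 179-fold lower when 3 counts are allowed in each KO library. The calls against WT Ly6Chi of the 12 named genes were kept in 17 of 17 alternatives, except Htra3 by limma-voom.

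**Figure D4:**
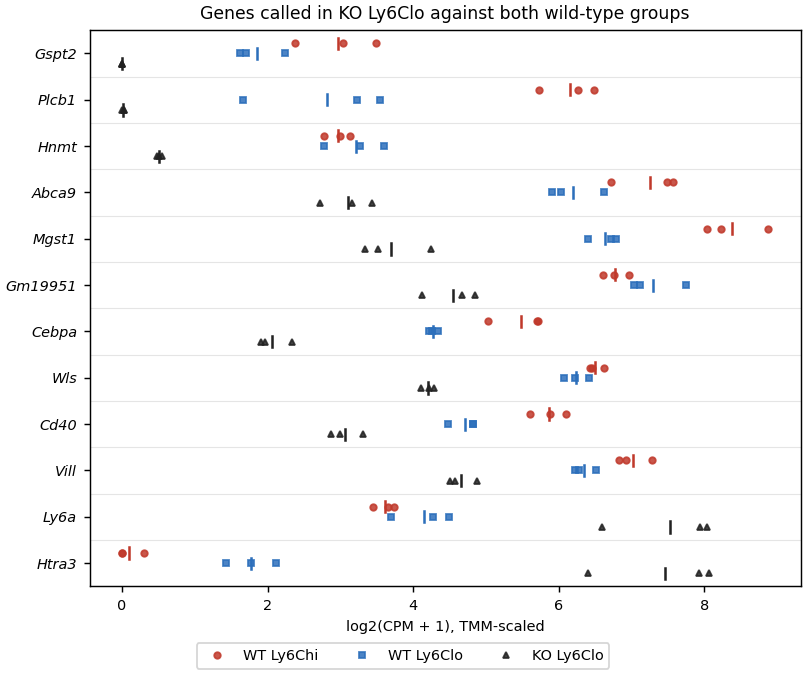
The 12 named genes called in KO Ly6Clo against both WT groups, as log2(CPM + 1) per library on the x axis with a vertical line at each group mean. The KO libraries lie left of all WT libraries for 10 genes and right of them for Ly6a and Htra3.

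Of 27 monocyte transcription factors, 1 was higher (Tcf7l2) and 1 lower, shares near the 2.06% and 2.46% of all genes. Tcf7l2, a factor of Wnt signalling, had 5.96, 18.6 and 21.4 CPM in WT Ly6Chi, 81.2, 147 and 115 CPM in KO and 74.2, 113 and 104 CPM in WT Ly6Clo (log2 2.90 ± 0.46 SE against WT Ly6Chi, edgeR adjusted p = 0.0096). The lower count was 0 without WT Ly6Chi replicate 2 or 3, KO replicate 1 or 3 or WT Ly6Clo replicate 2 or 3. By DESeq2 the counts were 4 higher and 3 lower, beside 1009 and 942 of all genes.

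Among chemokine receptors and adhesion genes, 5 of 20 were higher and 0 lower, beside 2.06% and 2.46% of all genes. Of the 20, 10 had an unadjusted p under 0.05, beside 3091 of all 18341 genes tested. DESeq2 called 6 of the 20 as higher and 2 as lower, beside 1009 and 942 of all genes. The beta-2 integrin chain Itgb2 had 1474, 1727 and 1845 CPM in WT Ly6Chi and 3014, 3625 and 3330 CPM in KO (log2 0.98 ± 0.14 SE, edgeR adjusted p = 0.0055), and S1pr5, a sphingosine 1-phosphate receptor, 59.3, 189 and 175 CPM and 854, 782 and 811 CPM (log2 2.53 ± 0.38 SE, edgeR adjusted p = 0.0079). For both the interval between KO and WT Ly6Clo held 0. Pecam1, an adhesion protein of endothelium and leukocytes, had 12.6, 16.6 and 11.1 CPM in WT Ly6Chi, 75.6, 61.0 and 38.1 CPM in WT Ly6Clo against 337, 382 and 165 CPM in KO (log2 4.45 ± 0.40 SE against WT Ly6Chi, edgeR adjusted p = 0.00067). The lowest KO library was above the highest WT Ly6Clo library, and the interval of that difference was 1.52 to 3.16 (edgeR adjusted p = 0.079, and 0.034 with the replicate number as a block, where it was called). The tetraspanin Cd81 had 10.2, 7.24 and 8.19 CPM in WT Ly6Chi, 74.3, 86.7 and 72.3 CPM in WT Ly6Clo against 70.1, 137 and 179 CPM in KO. The integrin chain Itgb1 also rose (log2 fold change 1.03), a call lost without WT Ly6Chi replicate 2.

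Of 13 coagulation and matrix genes tested, 6 fell and 1 rose, beside 2.46% and 2.06% of all genes. Coagulation factor F10 had 243, 175 and 167 CPM in WT Ly6Chi, 86.6, 124 and 85 CPM in WT Ly6Clo against 44.7, 43.1 and 42.2 CPM in KO (log2 -2.17 ± 0.21 SE, edgeR adjusted p = 0.00099), and the KO libraries lay below all WT Ly6Clo libraries (interval -1.66 to -0.71, edgeR adjusted p = 0.15). Tgfbi, a matrix protein induced by TGF-beta, had 1103, 1050 and 1051 CPM in WT Ly6Chi and 293, 192 and 164 CPM in KO, which overlapped WT Ly6Clo at 220, 170 and 177 CPM. Lgals3, galectin-3, and Timp2, a metalloproteinase inhibitor, fell with log2 fold changes of -1.26 and -2.30. F5, coagulation factor V, and the metalloproteinase Mmp19 were the other 2 falls, and their calls held in 9 and 11 of 17 alternatives. The F5 call was lost without WT Ly6Chi replicate 2 or 3, KO replicate 2 or 3 or WT Ly6Clo replicate 1, and that of Mmp19 without any WT Ly6Chi library, KO replicate 1 or WT Ly6Clo replicate 3. The transglutaminase Tgm2 rose, from 13.5, 36.0 and 47.8 CPM to 333, 972 and 446 CPM (log2 4.17 ± 0.61 SE, edgeR adjusted p = 0.0073), beside 422, 888 and 412 CPM in WT Ly6Clo. The list's falls numbered 4 without WT Ly6Chi replicate 2 or 3 and 5 or 6 without any other single library.

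Interferon response genes fell in 6 of 14 cases and rose in 0, beside 2.46% and 2.06% of all genes, with a median log2 fold change of -1.94. Usp18, which removes ISG15 from proteins, had 94.4, 145 and 113 CPM in WT Ly6Chi, 21.2, 20.7 and 29.2 CPM in WT Ly6Clo against 11.5, 21.5 and 11.9 CPM in KO (log2 -2.97 ± 0.31 SE, edgeR adjusted p = 0.0012). Oasl2, an oligoadenylate synthetase-like protein, had 200, 328 and 355 CPM in WT Ly6Chi and 79.6, 85.6 and 45.1 CPM in KO (log2 -2.07 ± 0.33 SE, edgeR adjusted p = 0.0097). Isg15 and Ifit2 fell with log2 fold changes of -2.85 and -2.42, and Ifit1 and Irf7 were called at adjusted p near the threshold (edgeR adjusted p = 0.048 and 0.0498). In the same list the median log2 fold change between the WT subsets was also -1.94. Between KO and WT Ly6Clo it was 0.08 with 0 of 14 called. In that comparison 3 of the 14 had an unadjusted p under 0.05, beside 1130 of all 18341 genes tested. The falls numbered 2 without WT Ly6Chi replicate 2 or 3, 4 without WT Ly6Clo replicate 1 or 3 or any KO library and 3 without the replicate 1 libraries. Isg15 was lost without WT Ly6Chi replicate 2 or 3, Ifit2 without those or KO replicate 2 or 3, Ifit1 without every library except KO replicate 3 and Irf7 without every library except WT Ly6Chi replicate 1.

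Among Fc receptors and complement, 3 of 13 genes fell and 1 rose, beside 2.46% and 2.06% of all genes. C3, the central complement component, had 820, 850 and 981 CPM in WT Ly6Chi, 179, 195 and 208 CPM in WT Ly6Clo against 85.3, 140 and 114 CPM in KO (log2 -2.97 ± 0.21 SE, edgeR adjusted p = 0.00026). Fcgr2b, the inhibitory Fc receptor, had 243, 320 and 299 CPM, 185, 224 and 184 CPM and 151, 110 and 87.1 CPM in the same order (log2 -1.31 ± 0.22 SE, edgeR adjusted p = 0.013). In both genes all KO libraries lay below all WT Ly6Clo libraries, and neither difference passed (edgeR adjusted p = 0.39 and 0.51). Fcgr1, the high-affinity IgG receptor, went the other way relative to WT Ly6Clo: 80.7, 90.3 and 83.9 CPM in WT Ly6Chi, 21.7, 17.2 and 21.6 CPM in WT Ly6Clo against 43.2, 40.4 and 23.5 CPM in KO (log2 -1.25 ± 0.24 SE, edgeR adjusted p = 0.022). Its level in KO lay between the WT subsets. The single rise was lost without any library except WT Ly6Chi replicate 1, the call of Fcgr1 without any WT Ly6Chi library or KO replicate 2, and that of Fcgr2b without WT Ly6Chi replicate 2 or KO replicate 2.

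Scavenger and clearance receptors had 1 rise, Cd300e, and 2 falls among 16 genes, beside 2.06% and 2.46% of all genes. Msr1, a class A scavenger receptor, had 186, 139 and 195 CPM in WT Ly6Chi, 27.6, 30.7 and 25 CPM in WT Ly6Clo against 0.76, 3.17 and 0 CPM in KO (log2 -6.99 ± 1.17 SE, edgeR adjusted p = 0.012), and the groups did not overlap. The interval of Msr1 against WT Ly6Clo was -6.69 to -2.0 (edgeR adjusted p = 0.36). Trem2, a lipid receptor of macrophages, had 73.6, 50.9 and 39.5 CPM in WT Ly6Chi and 3.83, 3.64 and 15.4 CPM in KO (edgeR adjusted p = 0.036), a call lost without any WT Ly6Chi library, KO replicate 1 or 2 or WT Ly6Clo replicate 2 or 3. In lipid handling 2 of 17 genes rose and 2 fell, beside the same shares of all genes. Scd2, a fatty acid desaturase, rose from 28.3, 38.7 and 46.1 CPM to 80.1, 66.5 and 80.7 CPM and Abcg1, a cholesterol exporter, from 27.3, 33.5 and 39.2 CPM to 101, 78.7 and 51.8 CPM (log2 fold changes 1.01 and 1.21, edgeR adjusted p = 0.032 and 0.039). Abca9, given above, and the fatty acid binding protein Fabp5 (log2 fold change -1.28, edgeR adjusted p = 0.045) fell. The calls of Scd2, Abcg1 and Fabp5 held in 9, 6 and 7 of 17 alternatives: Scd2 was lost without any library except WT Ly6Chi replicate 3 and WT Ly6Clo replicate 2, Abcg1 without any except KO replicate 3 and Fabp5 without any except WT Ly6Clo replicate 1.

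Of 12 survival and death genes of the BCL2 family, 3 rose and 0 fell, beside 2.06% and 2.46% of all genes. Bcl2a1d and Bcl2a1b, near copies that encode the anti-apoptotic protein A1, went from 5.88, 21.6 and 23.5 CPM to 127, 104 and 110 CPM and from 1.57, 5.80 and 6.78 CPM to 40.1, 28.0 and 32.4 CPM (log2 fold changes 2.74 and 2.83, edgeR adjusted p = 0.010 and 0.012). Bcl2, another anti-apoptotic gene, went from 14.5, 25.9 and 47.0 CPM to 83.1, 130 and 112 CPM (log2 1.89 ± 0.38 SE, edgeR adjusted p = 0.026). WT Ly6Clo had 138, 135 and 147 CPM of Bcl2a1d, above all KO libraries, and the intervals between KO and WT Ly6Clo held 0 for all 3. The Bcl2 call was lost without WT Ly6Chi replicate 2, KO replicate 2 or 3 or WT Ly6Clo replicate 3.

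In metabolism, presentation and inflammation, the called members stand beside 2.06% higher and 2.46% lower of all genes. Ldha, lactate dehydrogenase A, rose from 481, 478 and 435 CPM to 743, 851 and 617 CPM (log2 fold change 0.67, edgeR adjusted p = 0.044) and the hexokinase Hk3 fell from 146, 165 and 157 CPM to 17.4, 42.6 and 57.1 CPM (log2 -2.0, edgeR adjusted p = 0.018), the only 2 of 12 glycolysis genes called. In Hk3 the KO libraries lay below those of WT Ly6Clo, at 91.9, 118 and 100 CPM (interval -2.22 to -0.59, edgeR adjusted p = 0.43). H2-DMa, which loads peptide on MHC class II, fell from 219, 227 and 205 CPM to 82.4, 87.9 and 38.5 CPM (log2 -1.64, edgeR adjusted p = 0.013), the only one of 7 MHC class II genes. Il1rn, the interleukin 1 receptor antagonist, fell from 18.7, 17.0 and 18.1 CPM to 5.26, 7.27 and 3.53 CPM (log2 -1.74, edgeR adjusted p = 0.021), the only one of 13 inflammatory genes. The Ldha call was lost without any single library, that of Hk3 without WT Ly6Chi replicate 2 or 3 or KO replicate 2, that of H2-DMa without WT Ly6Chi replicate 2, and that of Il1rn without any WT Ly6Chi library or KO replicate 1 or 3.

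Of all genes tested, 2.06% were called higher and 2.46% lower. Lists without an edgeR call were those of growth factor and cytokine receptors, pattern recognition, iron and heme, NADPH oxidase, cell cycle, immediate early and heat shock, and primary granule and progenitor genes. Of their 20, 19, 9, 6, 15, 12 and 8 genes, 10, 8, 5, 2, 4, 2 and 4 had an unadjusted p under 0.05. So did 3091 of all 18341 genes tested. DESeq2 called 4 growth factor receptors and 2 pattern receptors as higher and 2 of each as lower, 5 iron genes, 2 cell cycle genes and 1 immediate early gene as higher and 3 granule genes as lower. Of all genes it called 1009 as higher and 942 as lower, more than edgeR did. Limma-voom called 1 growth factor receptor as higher and 2 granule genes as lower, beside 369 and 539 of all genes. Csf1r, the receptor on which monocyte survival depends, had 1993, 3542 and 3802 CPM in WT Ly6Chi and 4484, 5556 and 4977 CPM in KO (log2 0.69 ± 0.23 SE, edgeR adjusted p = 0.17), and the groups did not overlap. Cybb, the catalytic subunit of the phagocyte oxidase, had 1890, 2382 and 2805 CPM and 1896, 2495 and 1888 CPM (log2 -0.17, edgeR adjusted p = 0.73). Of the cell cycle genes, Mcm6, of the replication helicase, had 76.2, 59.2 and 46.8 CPM in WT Ly6Chi and 79.6, 192 and 201 CPM in KO (edgeR adjusted p = 0.080). Without KO replicate 1, where the cell cycle sum was 322 CPM against 1048 and 1312 CPM in KO replicates 2 and 3, 4 cell cycle genes and 3 iron genes were called as higher. That fit called 385 of all genes as higher.

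Markers of other cell types moved with some of these results. Neutrophil markers summed to 410, 892 and 423 CPM in WT Ly6Chi and to 2.06, 13.6 and 38.2 CPM in KO, beside 5.34, 3.69 and 8.48 CPM in WT Ly6Clo. Of 10 such genes 2 fell, Camp and S100a8, beside 2.46% of all genes. S100a8, a calcium-binding protein of neutrophils that classical monocytes also express, fell from 134, 137 and 69.2 CPM to 1.55, 4.05 and 9.23 CPM (log2 -4.52 ± 0.94 SE, edgeR adjusted p = 0.030). The S100a8 call was lost without any WT Ly6Chi library or KO replicate 1 or 2. The number of falls was 0 without WT Ly6Chi replicate 2 or 3 or KO replicate 1 or 2, 1 without WT Ly6Chi replicate 1 or WT Ly6Clo replicate 1 or 3, 3 without WT Ly6Clo replicate 2, 4 without KO replicate 3 and 5 by DESeq2 and by limma-voom. Neutrophils also express Cd177 and Fcnb, described above, and the part of neutrophil RNA in their falls was not tested. Conventional dendritic cell markers summed to 154, 405 and 408 CPM in WT Ly6Chi and 475, 729 and 266 CPM in KO. The peptidase Dpp4 rose from 59.6, 88.2 and 94.4 CPM to 348, 225 and 125 CPM, beside 67.0, 58.0 and 56.7 CPM in WT Ly6Clo (log2 fold change 1.53, edgeR adjusted p = 0.041), and the lectin Cd209a fell from 40.3, 120 and 98.8 CPM to 1.27, 2.24 and 1.28 CPM, beside 4.93, 59.9 and 38.7 CPM in WT Ly6Clo (log2 -5.74, edgeR adjusted p = 0.0090). For both genes the KO libraries lay outside the range of all 6 WT libraries, but neither passed against WT Ly6Clo (edgeR adjusted p = 0.15 for Dpp4 and 0.18 for Cd209a). The Dpp4 call held in 6 of 17 alternatives and was lost without any library except KO replicate 3.

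Of 7 plasmacytoid dendritic cell markers 2 fell (Bst2 and Irf7, both also interferon-induced), and of 6 red pulp macrophage markers Adgre1, the F4/80 antigen, rose and Siglec1, a sialic acid lectin, fell. Such counts stand beside 2.06% higher and 2.46% lower of all genes. Adgre1 had 271, 235 and 288 CPM in WT Ly6Chi and 487, 475 and 406 CPM in KO (edgeR adjusted p = 0.026), and Siglec1 17.8, 66.5 and 72.8 CPM and 0.202, 2.31 and 0.0176 CPM (edgeR adjusted p = 0.040). The Bst2 call was lost without WT Ly6Chi replicate 2 or 3 or KO replicate 3, that of Adgre1 without any library except WT Ly6Clo replicates 2 and 3, and that of Siglec1 without any except KO replicate 2. Eosinophil, basophil and mast cell markers summed to 0.662, 2.59 and 2.37 CPM in WT Ly6Chi and 6.92, 37.7 and 60.6 CPM in KO. Of the 5 members tested 1 was called, Gata2, whose rise is given above. WT Ly6Clo summed to 1.41, 28.0 and 65.4 CPM, which the KO libraries overlapped. B, T and NK cell, erythroid, platelet and sex-linked lists had 0 edgeR calls among 7, 7, 7, 7, 4 and 4 genes. Of these, 1, 1, 1, 2, 0 and 0 had an unadjusted p under 0.05, beside 3091 of all 18341 genes tested. DESeq2 called 1 B cell, 1 NK cell and 1 erythroid gene as higher and 1 T cell gene as lower, limma-voom 0. Of all genes DESeq2 called 1009 as higher and 942 as lower. Without KO replicate 1, 6 erythroid genes were called as higher, beside 385 of all genes. In bulk samples such as these, fewer cells of a type and less RNA per cell cannot be told apart.

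**Figure D5:**
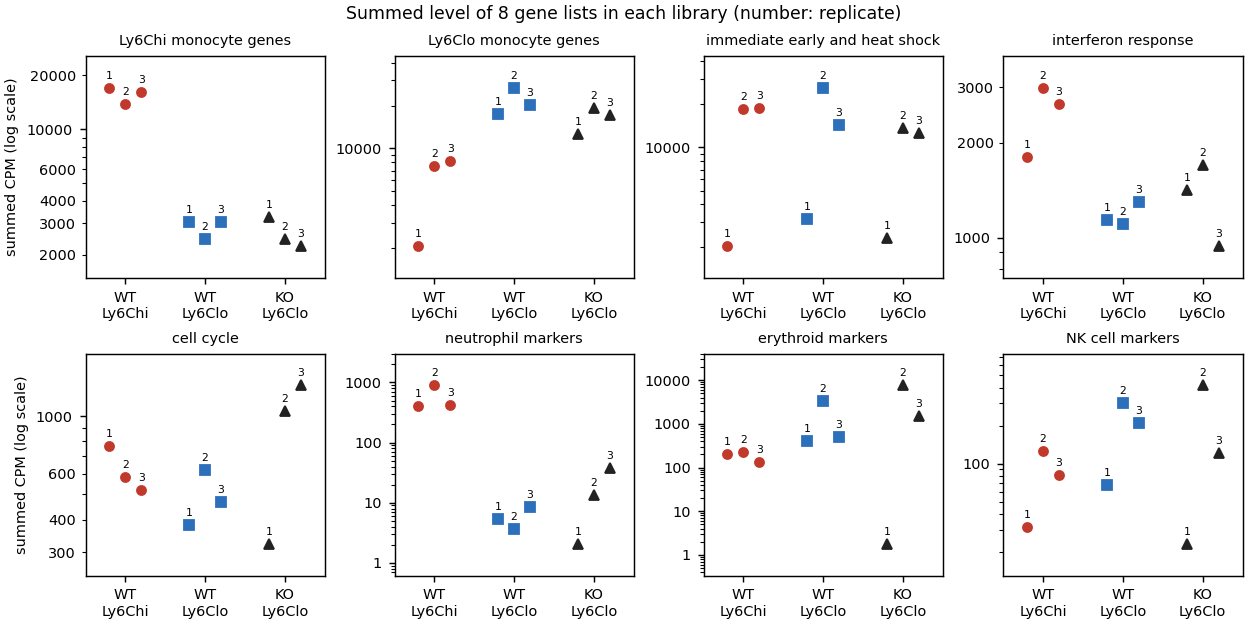
Summed level of 8 gene lists in each library, in CPM on a log axis, by group on the x axis, with the replicate number above each point. Replicate 1 is lowest in its group for immediate early and heat shock genes in all 3 groups and, in KO, for cell cycle, neutrophil, erythroid and NK cell lists.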

How the data were processed

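RNA of 9 libraries in 3 groups of 3 was measured by paired-end RNA sequencing (150 bases, SMARTer Ultra Low kit, 10 ng of total RNA, 12 to 15 PCR cycles, per the labels' protocols). The deposited counts are whole reads per gene for 55487 gene IDs, not normalized, per the file headers. The TPM values that the authors deposited beside them entered no test. According to the submitters' processing notes, the build was GRCm38 (mm10) and the tools included Salmon 0.8.2, featureCounts 1.4.6-p5 and STAR 2.5.1a. How strand and reads shared by genes were treated is not given in these sources, so overlapping genes and near copies (Ly6c1 and Ly6c2, Chil3 and Chil4, the Bcl2a1 genes, Ly6a, Spag11b, Hba-a1) are less certain. Of the IDs, 99.53% were found in GENCODE M21, which gave the symbols.

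Counts were tested in R 4.3.3 with edgeR 4.0.16: filterByExpr (minimum count 10), TMM scaling, 1 term per group over all 9 libraries, quasi-likelihood test, Benjamini-Hochberg adjustment over 18341 genes, called at an adjusted p under 0.05. Replicates differed beyond counting noise (chi-square per gene 53.8 or more). Intervals of log2 differences come from the edgeR fit and rest on the spread between libraries. Those of count ratios, and floors (3 counts), cover counting error only, since PCR copies were not marked. A fitted fold change of a gene near 0 counts depends on the prior count.

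The members and the 32 gene lists (372 genes, all matched) were chosen with earlier results of these data known. Named genes are 11 fixed subset genes, the 12 largest called rises and falls whose groups do not overlap and whose higher group averages 5 CPM or more (predicted genes, pseudogenes and receptor segments are left out), up to 4 called members per list or the 2 most abundant where none was called, and up to 12 genes called against both WT groups. Further listed members are given by value where a count covers them. The alternatives are DESeq2 1.42.0, limma-voom (3.58.1), RLE scaling, testing with no filter or keeping genes at 1 CPM or more in 3 libraries, the 2 groups alone, a replicate block, a run term (library numbers fall in runs of 5 and 4 libraries) and each library left out, 17 in all. Same-numbered KO and WT Ly6Clo libraries correlated in their deviations from the group means (r = 0.46, 0.35 and 0.12), so the numbers were taken as pairs there and blocked calls are given where they differ. The r of 0.12 was no higher than that of WT Ly6Clo replicate 2 with KO replicate 3, 0.13, so the pairing is uncertain. Leaving out all replicate 1 libraries was added after the data were seen. Where a library is left out its group keeps 2, and the spread is pooled over groups. Results of a few listed genes are not reported here.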

Additional observations from a re-analysis of the deposited data

How the results depend on the processing

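All 80 called named genes kept their sign in each alternative where they were tested, and 50 (without WT Ly6Chi replicate 2) to 79 stayed called. In all 80, the differences within both runs of library numbers had the direction of the fit. Where the groups do not overlap this is bound to hold, so it is no check on the run. DESeq2 called 1009 higher and 942 lower genes between KO Ly6Clo and WT Ly6Chi, 1960 between the WT subsets and 277 between KO and WT Ly6Clo. The fit of the 2 groups alone gave 219 higher genes in the first of these and 0 in the last, where 13 had been called. That last number was 54 without the filter, 27 with the filter of 1 CPM and 2 without the replicate 1 libraries. Leaving out single libraries gave 170 to 385 higher and 209 to 433 lower genes, 239 to 847 between the WT subsets and 2 to 21 between KO and WT Ly6Clo. The distances were 0.66 and 0.46 with a pseudocount of 5 and 0.65 and 0.50 without the filter. The cause was not tested.

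With the replicate block 457 genes were higher and 520 lower between KO Ly6Clo and WT Ly6Chi, and 13 were called between KO and WT Ly6Clo, 7 of them the same genes as without it. Besides the changes given with the genes named above, the block changed no call of a listed gene between KO and WT Ly6Clo. Same-numbered KO Ly6Clo and WT Ly6Chi libraries correlated in their deviations from the group means with r = 0.33, 0.24 and -0.01, and the WT subsets with 0.35, 0.14 and 0.07. The numbers were not taken as pairs in these 2 comparisons, although these r overlap those between KO and WT Ly6Clo.

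Signs turned only in genes without a call. Over the single libraries left out, Cx3cr1 ranged from -0.21 to 0.34, with -0.07 without KO replicate 3, Ftl1 ranged from -0.19 to 0.08, Cyba from -0.10 to 0.05, Dusp1 from -0.87 to 0.24, Lck from -0.80 to 0.35, Gzma from -0.02 to 2.33, Ppbp from -1.20 to 1.07 and Eif2s3y from -0.28 to 0.88. Without the replicate 1 libraries Cx3cr1 was -0.14, Ftl1 0.07, Cyba -0.06 and Lck 0.13. Ftl1 was 0.00 without the filter. Cyba was -0.00 by RLE scaling and DESeq2, -0.01 with the 1 CPM filter and limma-voom and -0.02 in the 2 groups alone. With the run term Cyba was -0.04, Dusp1 0.75 and Ppbp -0.13. Hbb-bs was -0.38 by limma-voom.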
